A study of Mus musculus with 84 samples.

Results

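Fibroblasts secrete chemokines, cytokines and prostaglandins, and 10 genes of this output were followed here through reprogramming of mouse embryonic fibroblasts (MEFs) to pluripotency. The genes were chosen by symbol from the deposited count table, which lists 18909 genes, and all 10 had a row. They are the CC chemokines Ccl2 and Ccl7, the CXC chemokines Cxcl1, Cxcl5 and Cxcl12, the cytokines Il6, Lif, Csf1 and Il33, and Ptgs2, the inducible cyclooxygenase COX-2. Each was followed in MEFs, in control (Cont) and Smad3CA (+Sm3CA) reprogramming on days 3, 6, 8 and 10, and in embryonic stem cells (ESCs), with 3 replicates in each of the 10 groups.

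The Cont and +Sm3CA cells were transgenic MEFs from mid-gestation chimeric embryos, made by aggregating morulae with a TNG MKOS ESC line and pooled over embryos of both sexes. That 1 line carried a Nanog-GFP knock-in that inactivates 1 Nanog allele and, at the Sp3 locus, an mOrange-marked MKOS cassette (c-Myc, Klf4, Oct4, Sox2) that doxycycline switches on through rtTA driven by a CAG promoter. The transgenic cells were plated among an excess of wild-type MEFs, infected with a retrovirus carrying BFP (Cont) or Smad3CA, a SMAD3 with acidic residues in place of its C-terminal phosphorylated serines (+Sm3CA), and grown in ESC medium with human LIF, vitamin C and doxycycline at 300 ng/ml. Retroviral vectors of this kind are silenced as pluripotency is approached. Cells were sorted for mOrange at harvest, whereas the MEF group was unsorted wild-type fibroblasts in medium with FGF2 and heparin and without LIF, and the ESC group was the TNG MKOS line itself. All groups are labelled with the 129 strain background. RNA was sequenced by a 5′-tagging method, and each replicate held 1008596 to 2296059 reads (median 1602511) from 3 wells, or from 2 wells on day 10. Smad3 itself was at 32.8 to 184 normalized counts in the 12 +Sm3CA libraries and at 5.19 to 25.4 in the 12 Cont libraries, and the ranges of the series did not overlap.

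Chemokines are small secreted proteins that attract leukocytes along a gradient. CCL2 and CCL7 act mainly on monocytes through CCR2, CXCL1 and CXCL5 act on neutrophils through CXCR2, and CXCL12 acts through CXCR4 and is bound by the scavenging receptor ACKR3. Interleukin 6 and LIF signal through gp130 and STAT3, and LIF is the cytokine that keeps mouse ESCs undifferentiated in culture. CSF1 is the growth factor of macrophages, IL-33 is an alarmin that signals through IL1RL1, and COX-2 makes the prostaglandin precursor PGH2. In fibroblasts several of these genes are inducible through NF-κB, AP-1 and C/EBP factors.

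The genes lie at the following places in GRCm38, the assembly that mm10 names. Ccl2 (ENSMUSG00000035385, chr11:82035571-82037453) and Ccl7 (ENSMUSG00000035373, chr11:82045712-82047525) are neighbours on the plus strand with 8.26 kb between them, and Cxcl5 (ENSMUSG00000029371, chr5:90759360-90761624) lies 130 kb before Cxcl1 (ENSMUSG00000029380, chr5:90891241-90893115) on the same strand. Il6 (ENSMUSG00000025746) is at chr5:30013114-30019981, Cxcl12 (ENSMUSG00000061353) at chr6:117168535-117181367, Lif (ENSMUSG00000034394) at chr11:4257557-4272514, Il33 (ENSMUSG00000024810) at chr19:29925114-29960718 and Ptgs2 (ENSMUSG00000032487) at chr1:150100031-150108227, all on the plus strand. Csf1 (ENSMUSG00000014599) is on the minus strand at chr3:107741048-107760469. All 10 are annotated as protein coding. How reads that match more than 1 chemokine gene were assigned is not given in the sources used here.

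Promoters of 3 genes are shown because the mRNAs they drive were each lower in +Sm3CA than in Cont on day 10. Ccl2, Ccl7 and Cxcl5 were lower there too, but no window was found for them, so their promoters were not examined. Each window runs from 250 bases before to 50 after the transcription start in RefSeq (GRCm38.p6, plus strand), and capitals mark matches on either strand to the NF-κB (κB) consensus, to the AP-1 site TGANTCA or to the C/EBP pattern TTGCNNAA. The windows are chr5:90890995-90891294 for Cxcl1, chr5:30012864-30013163 for Il6 and chr1:150099781-150100080 for Ptgs2.
Cxcl1: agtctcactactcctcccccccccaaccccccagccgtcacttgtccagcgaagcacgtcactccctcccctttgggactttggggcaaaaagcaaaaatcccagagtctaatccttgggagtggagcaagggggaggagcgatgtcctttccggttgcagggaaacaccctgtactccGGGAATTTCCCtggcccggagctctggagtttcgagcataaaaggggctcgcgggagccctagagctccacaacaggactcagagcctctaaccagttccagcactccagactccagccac
Il6: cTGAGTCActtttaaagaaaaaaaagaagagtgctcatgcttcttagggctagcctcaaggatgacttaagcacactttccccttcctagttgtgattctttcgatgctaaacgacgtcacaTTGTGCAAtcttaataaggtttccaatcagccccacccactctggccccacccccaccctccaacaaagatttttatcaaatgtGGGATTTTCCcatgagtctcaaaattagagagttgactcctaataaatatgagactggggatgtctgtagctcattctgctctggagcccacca
Ptgs2: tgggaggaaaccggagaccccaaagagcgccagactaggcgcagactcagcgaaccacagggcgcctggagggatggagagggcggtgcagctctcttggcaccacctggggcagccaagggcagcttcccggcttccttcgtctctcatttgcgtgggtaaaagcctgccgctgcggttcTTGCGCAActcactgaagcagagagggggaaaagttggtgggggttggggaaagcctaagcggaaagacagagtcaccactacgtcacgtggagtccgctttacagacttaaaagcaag
The Cxcl1 window held overlapping κB matches on opposite strands that began 71 and 70 bases before the start. The Il6 window held a κB match 44 bases, a C/EBP match 128 bases and an AP-1 match 249 bases before the start, and the Ptgs2 window held a C/EBP match 69 bases before it. The Cxcl12 window held none of the 3 patterns. Windows were found for 7 of the 10 genes, and those of Csf1 (κB), Lif (κB and AP-1) and 1 of the windows of Il33 (C/EBP) also held matches. Of all 32851 RefSeq windows of this length, 8.46% held the κB consensus, 7.81% the AP-1 site and 10.8% the C/EBP pattern. A match describes letters in a window and is not a measured binding site, and its relation to the mRNA levels was not tested.

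**Figure D1:**
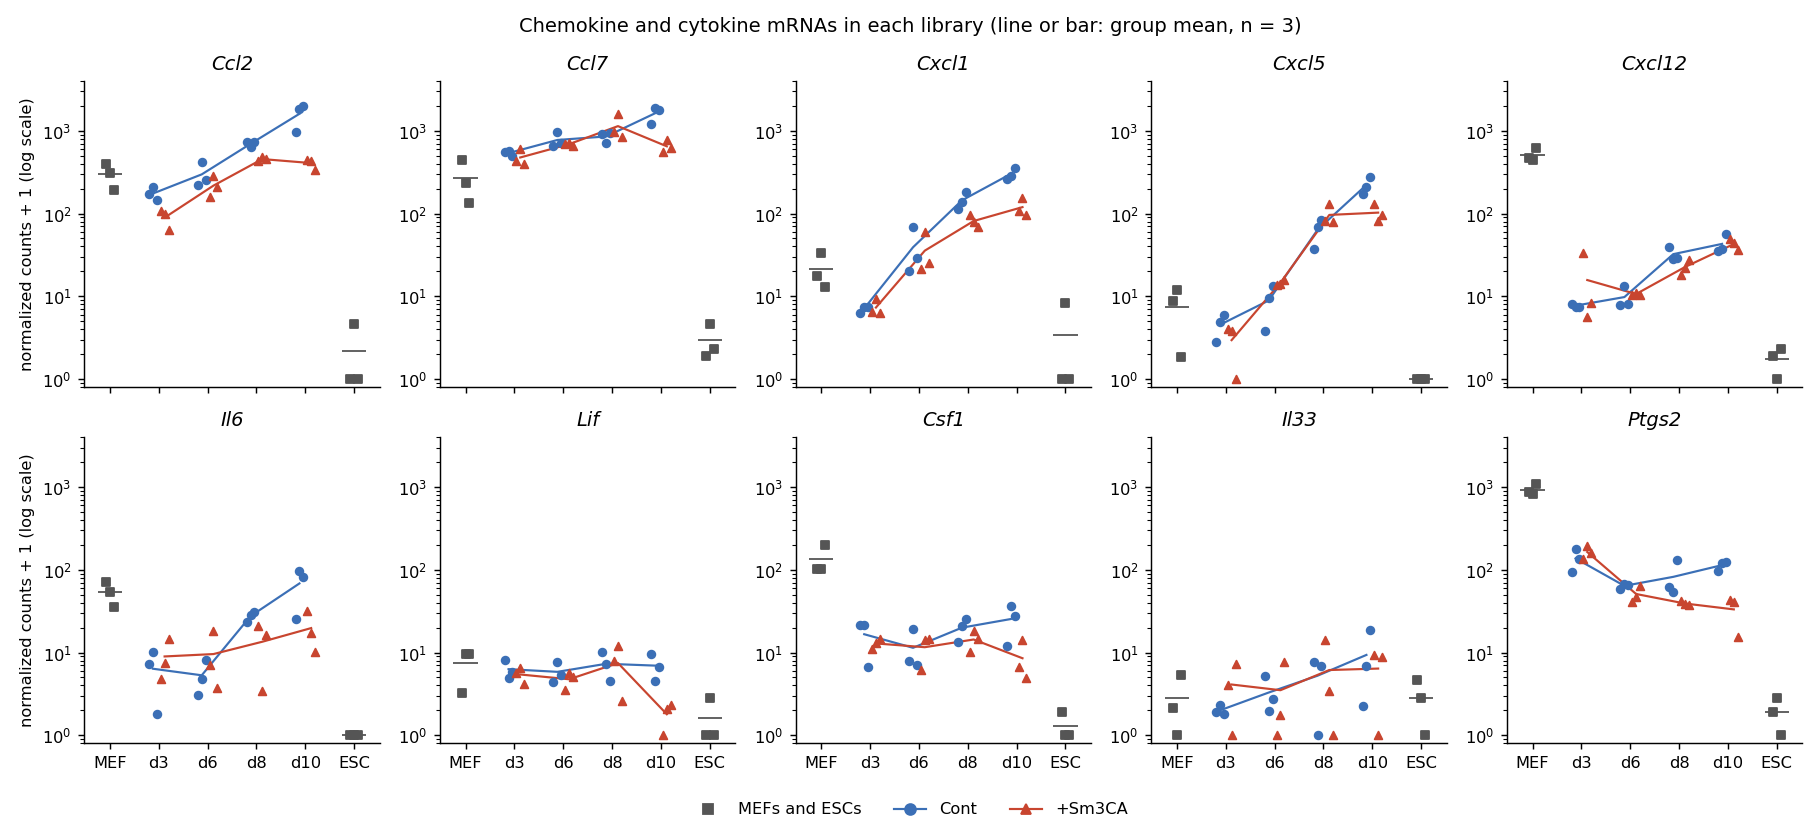
Normalized counts plus 1 (log axis) of each gene in each of the 30 libraries, for MEFs and ESCs (squares), Cont (circles) and +Sm3CA (triangles), with lines or bars at the means of 3 replicates. Cxcl1 and Cxcl5 climbed from day 3 to day 10 in both series, Cxcl12, Csf1 and Ptgs2 stayed under every MEF library in all 24 reprogramming libraries, and no gene exceeded 7.23 in an ESC library.

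Levels are given as normalized counts, reads divided by the library's DESeq2 size factor, and 3 values in a row are replicates 1, 2 and 3. Fold changes and p-values are edgeR quasi-likelihood estimates, adjusted by Benjamini-Hochberg over every gene tested, and a gene is called changed at an adjusted p under 0.05. These are bulk libraries, so fewer cells of a type and less RNA per cell cannot be told apart.

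To find where the 10 genes started and where they would have to arrive, ESCs were compared with MEFs. All 7 of the genes tested were lower in ESCs (28.8% of 8798 genes tested were lower). These genes had few reads in ESCs and passed the low-count filter through MEFs, so the filter fixed the direction. The count is therefore no result about the genes, and their levels are given instead. Ptgs2 was at 861, 827 and 1090 normalized counts in MEFs against 2 reads in all 3 ESC libraries together, and the ratio of MEF to ESC was 1140 (95% counting interval 316 to 9440). Cxcl12 was at 468, 441 and 612 in MEFs against 2 ESC reads, a ratio of 625 (173 to 5170). Ccl2 was at 391, 307 and 194 in MEFs against 2 ESC reads (ratio 350, interval 96.7 to 2900), and Csf1 was at 102, 101 and 198 against 1 ESC read (ratio 337, interval 60.2 to 13400). The intervals cover counting error only, and they treat reads as independent, although the counts used are of reads and not of molecules. Ccl7 was at 440, 233 and 133 in MEFs and at 0.913, 3.61 and 1.29 in ESCs (log2 fold change -7.19 ± 0.62 SE, adjusted p = 1.08e-07). Il6 was at 71.1, 53.2 and 34.6 in MEFs and had no read in ESCs, which makes it at least 41.5-fold lower there when 3 reads are allowed over the group. Cxcl1 was the least separated of the 7, with 16.7, 32.6 and 12.1 in MEFs and 0, 7.23 and 0 in ESCs (log2 fold change -3.41 ± 0.92, adjusted p = 0.0054). For these 7 genes every MEF library was above every ESC library.

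The 3 genes outside this test had few reads. Cxcl5 was at 7.78, 10.9 and 0.864 in MEFs and had no read in ESCs, at least 4.89-fold lower. Lif had 20 MEF reads and 1 ESC read (ratio 16.3, counting interval 2.61 to 675), and Il33 had 6 MEF reads and 5 ESC reads (ratio 0.978, interval 0.249 to 4.05), which shows no direction. Lif and Il33 passed the low-count filter in none of the main fits, so their values below are descriptions. Without the filter Cxcl5 (adjusted p = 0.00887) and Lif (adjusted p = 0.037) were also called lower in ESCs.

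The related lists were counted in the same comparison, where 28.8% of 8798 genes were lower in ESCs and 2066 were higher. Listed genes with no ESC read passed the low-count filter through MEFs in the same way. Of the other chemokine and cytokine genes 8 of 35 listed in the file were tested, 5 were lower and 1 higher in ESCs. The interleukin 1 receptor antagonist Il1rn fell from 54 ± 37.9 normalized counts (SD, n = 3) to no read, Cxcl14 from 48 ± 7.23 to no read and the gp130 cytokine Il11 from 35.8 ± 9.05 to no read. Of the receptors 4 of 6 tested were lower and 1 higher, among them the oncostatin M receptor Osmr (83 ± 10.9 in MEFs, no read in ESCs) and the IL-33 receptor Il1rl1 (62.1 ± 10.5, no read). Of the enzymes of prostanoid synthesis other than Ptgs2, 3 of 6 tested were lower and 1 higher, with the phospholipase Pla2g4a at 496 ± 68.5 in MEFs and 4.61 ± 2.33 in ESCs. Of 21 tested regulators of inflammatory signalling 13 were lower and 3 higher. All 13 tested of 16 fibroblast markers were lower in ESCs and all 10 ESC markers were higher. No fibroblast marker had more than 5 reads over the ESC libraries, and no ESC marker more than 22 over the MEF libraries. Each list passed the low-count filter through the other group, so the direction was fixed and these marker counts are no result. The unsorted MEF libraries also held leukocyte reads, with marker sums of 2180, 1310 and 539 in replicates 1, 2 and 3. Ccl2, Ccl7 and Il6 fell in the same order over these replicates. Cxcl12, Csf1 and Ptgs2 were instead highest in replicate 3, and Cxcl1 in replicate 2. The part of leukocytes in the MEF levels was not tested.

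Between MEFs and Cont on day 3 these genes differed to unlike degrees and in both directions. In Cont on day 3, 6 of 8 tested genes were lower than in MEFs (20.9% of 10979 genes) and 1, Ccl7, was higher (22.6%). Cxcl12, Il6 and Cxcl1 had 21, 15 and 19 reads on day 3 and passed the low-count filter through other groups, which favoured a fall. Cxcl12 fell most, from 468, 441 and 612 in MEFs to 7.13, 6.49 and 6.5 on day 3 (log2 fold change -6.09 ± 0.38, adjusted p = 9.58e-17). Il6 fell from 71.1, 53.2 and 34.6 to 6.24, 9.08 and 0.813 (-3.26 ± 0.62, adjusted p = 4.56e-05). Csf1 went from 102, 101 and 198 to 20.5, 20.8 and 5.69 (-3.02 ± 0.42, adjusted p = 1.46e-07) and Ptgs2 from 861, 827 and 1090 to 94.5, 179 and 136 (-2.66 ± 0.26, adjusted p = 3.69e-11). In none of these 4 did the groups overlap. Ccl7, at 554, 563 and 495 on day 3, lay above all MEF libraries (1.13 ± 0.27, adjusted p = 0.000685), while its neighbour Ccl2, at 170, 206 and 145, overlapped the MEF range of 194 to 391 (-0.66 ± 0.27, adjusted p = 0.0469).

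2 of the calls between MEFs and day 3 rested on single libraries. Cxcl1 on day 3 (5.35, 6.49 and 6.5) was under every MEF library (-1.58 ± 0.55, adjusted p = 0.0166), but was not called without MEF replicate 2 (-1.14, adjusted p = 0.137). The Ccl2 call was lost without MEF replicate 1 (-0.47, adjusted p = 0.219) or 2 (-0.68, 0.0712) and without day 3 replicate 1 (-0.69, 0.083) or 3 (-0.59, 0.136). Cxcl5 did not differ detectably (-0.66 ± 0.68, adjusted p = 0.456). The MEFs and the day 3 cells differ in sort, medium, virus and transgene as well as in time, and these cannot be told apart. Most fibroblast markers moved in the same direction, with a summed level of 5120 to 7030 in MEFs and 1060 to 1560 on day 3. Of 15 tested, 12 were lower (20.9% of all genes) and 1 was higher (22.6%). Dcn went the other way, from a mean of 60 to 582, a large part of the day 3 sum. Leukocyte markers summed to 539 to 2180 in MEFs and to 416 to 1180 on day 3. The part of either cell type in the falls was not tested.

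From day 3 to day 10 of Cont reprogramming the chemokines and Il6 rose. 6 of the 8 tested genes were higher on day 10 than on day 3 (13.6% of 10237 genes), 0 were lower, and the median log2 fold change of the 8 was 2.91 against 0.09 over all genes tested. Over the Cont day 3 libraries Cxcl1, Cxcl5, Cxcl12 and Il6 had 19, 11, 21 and 15 reads. They passed the low-count filter through other groups, so the filter favoured a rise. The count and the median are therefore no result about the genes, and their levels are given instead. Cxcl5 rose from 1.78, 3.89 and 4.88 to 173, 211 and 279 (log2 fold change 5.92 ± 0.41, adjusted p = 1.72e-13), and Cxcl1 from 5.35, 6.49 and 6.5 to 260, 287 and 354 (5.59 ± 0.39, adjusted p = 1.94e-13). These chemokines for neutrophils ended far above their MEF levels, which had reached at most 10.9 for Cxcl5 and 32.6 for Cxcl1. Ccl2 rose from 170, 206 and 145 to 957, 1860 and 2000 (3.2 ± 0.25, adjusted p = 1.52e-12), and Ccl7 from 554, 563 and 495 to 1220, 1890 and 1780 (1.59 ± 0.21, adjusted p = 2.39e-07). Both were above every MEF library by day 10. Il6 rose from 6.24, 9.08 and 0.813 to 24.7, 96.8 and 81 (3.73 ± 0.61, adjusted p = 1.28e-05), where its range crossed that of MEFs. Cxcl12 rose from 7.13, 6.49 and 6.5 to 34.6, 35.8 and 55.6 (2.62 ± 0.45, adjusted p = 2.37e-05) and was still below the lowest MEF library. All 6 of these calls held in each of the alternatives tried.

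Csf1 and Ptgs2 did not follow. Csf1 was at 20.5, 20.8 and 5.69 on day 3 and at 11.1, 35.8 and 26.4 on day 10 (log2 fold change 0.67 ± 0.47, adjusted p = 0.312). Ptgs2 was at 94.5, 179 and 136 on day 3 and at 96.3, 121 and 122 on day 10 (-0.27 ± 0.26, adjusted p = 0.475), after a dip to 58.1, 67 and 64.1 on day 6. Both overlapped between the days, and both remained below all MEF libraries. Lif, whose protein was also supplied in the medium, held 16 to 20 reads per Cont group on each day. Il33 went from 3 reads on day 3 to 25 on day 10, of which 19 were in replicate 3, and it was called higher when no low-count filter was used (adjusted p = 0.0159).

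**Figure D2:**
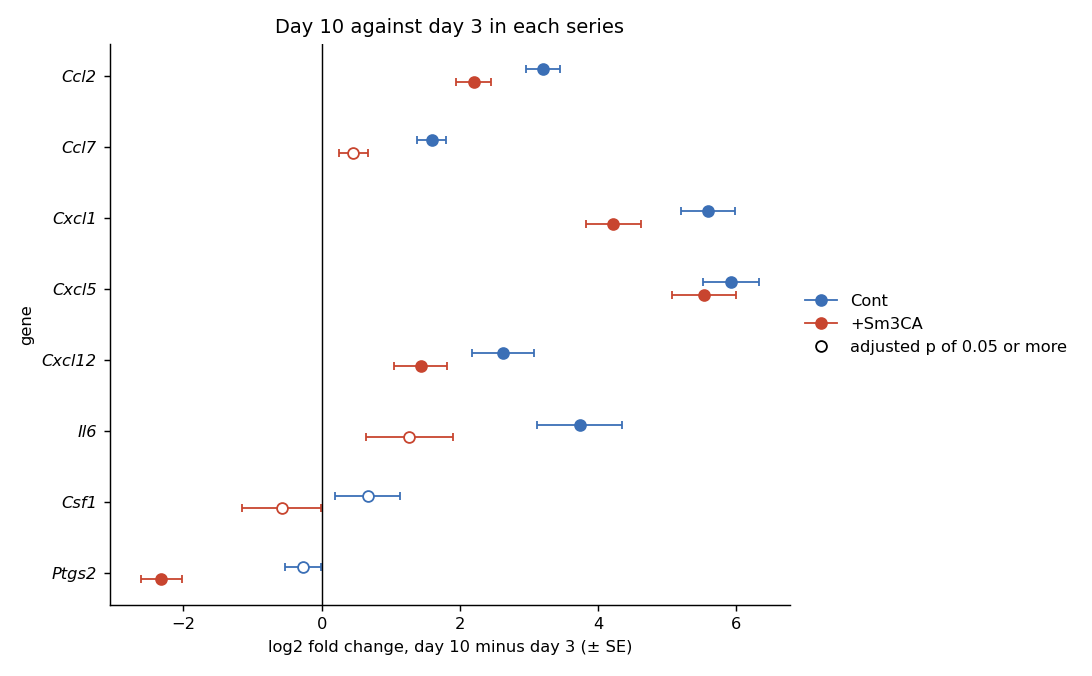
Log2 fold change between day 10 and day 3 (x axis, ± SE from the edgeR fit) of the 8 tested genes in Cont and in +Sm3CA, with filled points where the adjusted p was under 0.05. In Cont 6 genes rose, and in +Sm3CA 4 rose while Ptgs2 fell.

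The rises in Cont did not all fall in the same interval. The low-count filter favoured rises from few reads here too, as for Cxcl1 from day 3 (19 reads) and Il6 from day 6 (15 reads). Between days 3 and 6, Ccl2 and Cxcl1 rose (2 of 8 genes, 4.91% of all genes higher) and Ptgs2 fell (1 of 8, 4.21% lower). Cxcl1 reached 19.4, 67 and 28.1 on day 6 (2.58 ± 0.45, adjusted p = 0.000179). Between days 6 and 8, 5 genes rose (1.4% of all genes), with Cxcl5 going from 2.77, 8.62 and 12.3 to 36.2, 68.6 and 83.5 (3.05 ± 0.37, adjusted p = 1.46e-06), Il6 from 2.08, 3.83 and 7.03 to 22.6, 27.4 and 29.8 (2.63 ± 0.64, adjusted p = 0.0192) and Cxcl12 from 6.92, 12.4 and 7.03 to 38.5, 27.4 and 28 (1.82 ± 0.42, adjusted p = 0.0142). Ccl2 and Cxcl1 were the others. Between days 8 and 10, 4 rose (1.58% of all genes), namely Ccl2 (1.21 ± 0.23, adjusted p = 0.00104), Ccl7 (0.93 ± 0.2, 0.00575), Cxcl1 (1.06 ± 0.27, 0.0201) and Cxcl5 (1.79 ± 0.27, 7e-05). Ccl7, at 652, 965 and 706 on day 6 and at 911, 712 and 941 on day 8, was called in this last interval alone, although between days 3 and 6 it was called when the fit held only those libraries (0.54, adjusted p = 0.00264) or no low-count filter (0.55, 0.0498) against 0.106 otherwise.

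Several of these interval calls rested on 1 library. Between days 3 and 6 the Ccl2 call (0.78 ± 0.24, adjusted p = 0.0321) was lost without day 3 replicate 1 (0.77, 0.101) or 3 (0.66, 0.155) or day 6 replicate 2 (0.45, 0.336), and that of Ptgs2 (-1.1 ± 0.27, 0.00545) without day 3 replicate 2 (-0.87, 0.0697). Between days 6 and 8 the Cxcl12 call was lost without day 6 replicate 1 (1.66, 0.132) or 3 (1.69, 0.0823) or day 8 replicate 1 (1.64, 0.0616), and the Il6 call without day 6 replicate 1 (2.25, 0.174) or 2 (2.58, 0.0845) or day 8 replicate 3 (2.53, 0.0795). Between days 8 and 10 the Ccl7 call was lost without day 8 replicate 2 (0.8, 0.0762) or day 10 replicate 2 (0.8, 0.0624) or 3 (0.84, 0.0545), and the Cxcl1 call without day 8 replicate 1 (0.9, 0.169) or 2 (1.0, 0.0968) or day 10 replicate 2 (1.08, 0.0559) or 3 (0.9, 0.149). Il6 was called in that interval without day 10 replicate 1 (1.7, 0.0409), and Ptgs2 without day 8 replicate 3 (0.96, 0.0493).

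Lists of related genes were counted over the same days in Cont, beside the 13.6% of all genes that were higher and 1192 of 10237 that were lower. Of the other chemokine and cytokine genes 11 of 19 tested were higher on day 10 than on day 3 and 2 lower, with a median log2 fold change of 1.91. The CXCR3 ligand Cxcl10 went from 1 ± 0.26 normalized counts (SD, n = 3) to 166 ± 103 (adjusted p = 2.16e-09), and the CXCR2 ligand Cxcl2 from 0.865 ± 1.5 to 19.9 ± 8.59 (adjusted p = 6.79e-05). Genes with few day 3 reads, such as Cxcl10 (3) and Cxcl2 (2), passed the low-count filter through other groups. The filter therefore favoured rises in these counts as well. Of 27 tested regulators of inflammatory signalling 10 were higher and 0 lower. Among them the NF-κB inhibitor Nfkbia went from 16.8 ± 4.15 to 97.6 ± 8.46 (log2 fold change 2.54 ± 0.27 SE), Tlr2, a receptor of bacterial lipoproteins, from 4.73 ± 3.77 to 39.9 ± 3.52 (3.17 ± 0.42) and Tnfaip3, the ubiquitin-editing inhibitor A20, from 3.08 ± 3.52 to 32.2 ± 14.5 (3.3 ± 0.55). Of 7 receptors tested 1 rose, the CXCL12 scavenger Ackr3, from 25.8 ± 3.48 to 86.9 ± 17.7. The receptor count is near the share over all genes. Of 6 enzymes of prostanoid synthesis 1 rose, also near that share, the PGE2 synthase Ptges, from 9.04 ± 2.75 to 21.2 ± 3.04 (adjusted p = 0.0488), while Ptgs2 itself did not change.

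Markers of other cell types were counted over the same days, beside the 13.6% of all genes that were higher and 1192 of 10237 that were lower. Some had few day 3 reads, such as Cd52 (9), Aif1 (5), Cldn4 (1) and Cldn7 (1). These passed the low-count filter through other groups, which favoured a rise. Of 16 leukocyte markers 12 were tested and 7 were higher on day 10 than on day 3 of Cont, led by Cd52 at 2.92 ± 2.29 and 88.7 ± 75.6 and by Aif1 and Emr1. Their summed level was 1050, 1180 and 416 on day 3 and 704, 2980 and 2930 on day 10, with Lyz2, a lysozyme of myeloid cells, giving most of the reads on both days. The defining marker Ptprc (CD45) was at 12 reads over the group on day 3 and at 43 on day 10. In ESCs 12 of the 16, Ptprc among them, had no read. Fibroblast markers summed to 1060 to 1560 on day 3 and to 1380 to 2850 on day 10, with 5 of 14 tested higher and 1 lower, and 7 of 8 epithelial markers were higher. The part of these cell types in the rises was not tested.

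The +Sm3CA series was then followed in the same way. There 4 of 8 tested genes were higher on day 10 than on day 3 (17.6% of all genes) and 1 was lower (16.2%). On day 3 Cxcl1, Cxcl5 and Cxcl12 had 21, 7 and 54 reads, the last mostly in 1 library. They passed the low-count filter through other groups, which favoured a rise, so the count of higher genes is no result about them. Cxcl5 rose from 3.07, 2.78 and 0 to 129, 80.8 and 95.1 (log2 fold change 5.53 ± 0.46, adjusted p = 9.37e-12), and Cxcl1 from 5.37, 8.35 and 5.22 to 107, 155 and 93.8 (4.22 ± 0.4, adjusted p = 1.98e-10). Ccl2 rose from 105, 98.3 and 61.6 to 447, 436 and 337 (2.2 ± 0.25, adjusted p = 1.35e-08), and Cxcl12 from 32.2, 4.64 and 7.3 to 47.7, 42.6 and 35.2 (1.43 ± 0.39, adjusted p = 0.0044). The first of the day 3 values of Cxcl12 stands apart, and without it the log2 fold change was 2.79. Ptgs2 fell from 136, 193 and 161 to 42.1, 40.4 and 14.3 (-2.32 ± 0.3, adjusted p = 1.42e-07), with no overlap. Ccl7 was at 426, 605 and 395 on day 3 and at 551, 771 and 624 on day 10 (0.46 ± 0.21, adjusted p = 0.0845), but was called higher with the replicate number as a block (0.47, adjusted p = 0.0464) and without day 3 replicate 2 (0.66, adjusted p = 0.0282). Il6 (1.27 ± 0.63, adjusted p = 0.119) and Csf1 (-0.58 ± 0.57, adjusted p = 0.454) overlapped between the days.

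The +Sm3CA series was also split into its intervals. Cxcl1 and Cxcl5 had 21 and 7 reads on day 3, so the low-count filter favoured their rise to day 6. Between days 3 and 6, 3 of 8 genes rose (9.62% of all genes), which were Ccl2 (1.3 ± 0.25, adjusted p = 0.000282), Cxcl1 (2.5 ± 0.45, 0.000107) and Cxcl5 (2.65 ± 0.6, 0.00164), and 1 fell (8.97%), which was Ptgs2 (-1.71 ± 0.27, 2.27e-05). Ccl7 joined the rising genes in the blocked fit (0.59, adjusted p = 0.0217 against 0.0542 without the block) and without day 3 replicate 2 (0.76, 0.0245). Between days 6 and 8, 4 genes rose (2.98%), with Cxcl5 going from 12.8, 13.2 and 14.8 to 80.3, 128 and 77.5 (2.8 ± 0.34, 2.31e-06), Ccl2 from 156, 283 and 211 to 430, 483 and 451 (1.05 ± 0.23, 0.00485), Cxcl1 from 20.5, 59 and 24.3 to 93.9, 79 and 67.8 (1.15 ± 0.31, 0.0177) and Ccl7 from 699, 713 and 657 to 978, 1600 and 840 (0.71 ± 0.2, 0.0273). Between days 8 and 10 none of the 8 was called higher, and 1 was lower (2.42%). That was Ccl7, which went back to 551, 771 and 624 (-0.81 ± 0.21, adjusted p = 0.0162). The day 8 replicate with 1600 normalized counts set much of this, since without it the Ccl7 change was 0.37 (adjusted p = 0.357) into day 8 and -0.48 (0.216) out of it. Ccl2 (-0.16 ± 0.23, 0.757) and Cxcl5 (0.09 ± 0.27, 0.898) were not called in that last interval. Cxcl12 went from 17.3, 20.8 and 26.6 on day 8 to 47.7, 42.6 and 35.2 on day 10 without overlap (0.96 ± 0.37, unadjusted p = 0.013, adjusted p = 0.128), and it was called in none of the single steps. Cxcl1 overlapped between days 8 and 10 (0.57 ± 0.28, adjusted p = 0.262). The 95% intervals of the log2 change were -0.6 to 0.29 for Ccl2 and -0.44 to 0.62 for Cxcl5, and both rose in Cont over the same days. Whether the series differed in that step was not tested.

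Other calls in these steps were also lost when 1 library was left out. The Ccl7 rise into day 8 was also lost without day 6 replicate 1 (0.71, adjusted p = 0.0729), 2 (0.72, 0.0597) or 3 (0.67, 0.124), and its fall into day 10 without day 10 replicate 1 (-0.7, 0.106) or 3 (-0.78, 0.0701). The Cxcl1 rise into day 8 was lost without day 6 replicate 1 (0.85, 0.142) or 3 (0.99, 0.121) and without day 8 replicate 1 (1.01, 0.0841) or 2 (1.15, 0.0518).

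To ask what the added Smad3CA did at each time, +Sm3CA was compared with Cont day by day. On days 3 and 6 edgeR called 0 of 8 genes (0.0195% and 0.00977% of all genes in either direction), as did the DESeq2 Wald test, with 2 genes at an unadjusted p under 0.05 on day 3 and 0 on day 6. On day 3 Ccl2 was already the lowest gene relative to Cont, at 105, 98.3 and 61.6 against 170, 206 and 145, with no overlap (log2 fold change -0.96 ± 0.25, unadjusted p = 0.000507, adjusted p = 0.572). Without the low-count filter it was called on day 3 (adjusted p = 0.00476, against 0.00476 to 1.0 over all alternatives). Cxcl12 was the other (1.18 ± 0.48, adjusted p = 0.843), from a single +Sm3CA library at 32.2, and without that library the difference was -0.18. On day 6 the differences ran from -0.43 for Ccl2 to 1.15 for Il6, and only Cxcl5 did not overlap, at 12.8, 13.2 and 14.8 against 2.77, 8.62 and 12.3 (0.84 ± 0.46, adjusted p = 1.0).

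On day 8 Ptgs2 was the first to be called, 1 of 8 genes lower (0.654% of all genes), at 40.8, 37.4 and 36.3 in +Sm3CA and 61.1, 52.8 and 130 in Cont (log2 fold change -1.12 ± 0.28, adjusted p = 0.0358). The high Cont library was replicate 3, and without it the difference was -0.58 (adjusted p = 0.354). The call was also lost without +Sm3CA replicate 1 (-1.17, 0.0758) or 2 (-1.1, 0.138). Ccl2 (430, 483 and 451 against 735, 629 and 725, adjusted p = 0.169), Cxcl1 (93.9, 79 and 67.8 against 113, 136 and 181, adjusted p = 0.116), Cxcl12 and Il6 also lay below Cont without overlap, but were not called. Without the low-count filter Cxcl1 was called (-0.83, adjusted p = 0.00948, against 0.00948 to 0.331 over all alternatives). Ccl7 (0.43 ± 0.2, adjusted p = 0.304) and Cxcl5 (0.59 ± 0.27, adjusted p = 0.288) had the opposite sign.

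By day 10, 6 of the 8 tested genes were lower in +Sm3CA (2.74% of all genes) and 0 were higher, with a median log2 fold change of -1.47 against -0.01 over all genes tested. Ccl2, the monocyte chemokine, was at 447, 436 and 337 in +Sm3CA against 957, 1860 and 2000 in Cont (-1.96 ± 0.23, adjusted p = 7.64e-07), and its neighbour Ccl7 at 551, 771 and 624 against 1220, 1890 and 1780 (-1.31 ± 0.21, adjusted p = 7.2e-05). The neutrophil chemokine Cxcl1 was at 107, 155 and 93.8 against 260, 287 and 354 (-1.32 ± 0.27, adjusted p = 0.0025). Every Cont library was above every +Sm3CA library for all 3. The other neutrophil chemokine, Cxcl5, was at 129, 80.8 and 95.1 against 173, 211 and 279 (-1.12 ± 0.27, adjusted p = 0.00971). Ptgs2 was at 42.1, 40.4 and 14.3 against 96.3, 121 and 122 (-1.78 ± 0.3, adjusted p = 0.000234). These groups did not overlap either. The calls of Ccl2, Ccl7, Cxcl1 and Ptgs2 held in all 11 alternatives tried, with adjusted p at most 0.000101, 0.00243, 0.0404 and 0.00906.

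The call of Cxcl5 on day 10 was lost without Cont replicate 3 (-0.89, adjusted p = 0.121) or +Sm3CA replicate 2 (-0.95, 0.103) or 3 (-1.06, 0.0694). Il6 was at 30.8, 16.4 and 9.11 in +Sm3CA against 24.7, 96.8 and 81 in Cont (-1.84 ± 0.52, adjusted p = 0.034). The groups overlapped through Cont replicate 1. The Il6 call was lost with the replicate number as a block (-1.79, adjusted p = 0.0508), in the DESeq2 Wald test (-1.82, 0.119) and without Cont replicate 2 (-1.5, 0.217) or 3 (-1.67, 0.146) or +Sm3CA replicate 2 (-1.74, 0.149) or 3 (-1.51, 0.202). Csf1 had a difference of similar size that was not called, at 5.61, 13.1 and 3.91 against 11.1, 35.8 and 26.4 (-1.62 ± 0.53, adjusted p = 0.0849), and was called without Cont replicate 1 (-1.93, 0.0279) or without the low-count filter (-1.6, 0.0353), with adjusted p of 0.0279 to 0.347 over all alternatives. Cxcl12 was the exception among the chemokines, at 47.7, 42.6 and 35.2 against 34.6, 35.8 and 55.6 (0.00 ± 0.36, 95% interval -0.71 to 0.7, adjusted p = 0.997). Lif had 2 reads in the +Sm3CA libraries and 16 in the Cont libraries, a ratio of Cont to +Sm3CA of 7.08 (counting interval 1.66 to 63.5), and Il33 had 12 and 25 (1.84, 0.893 to 4.03).

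**Figure D3:**
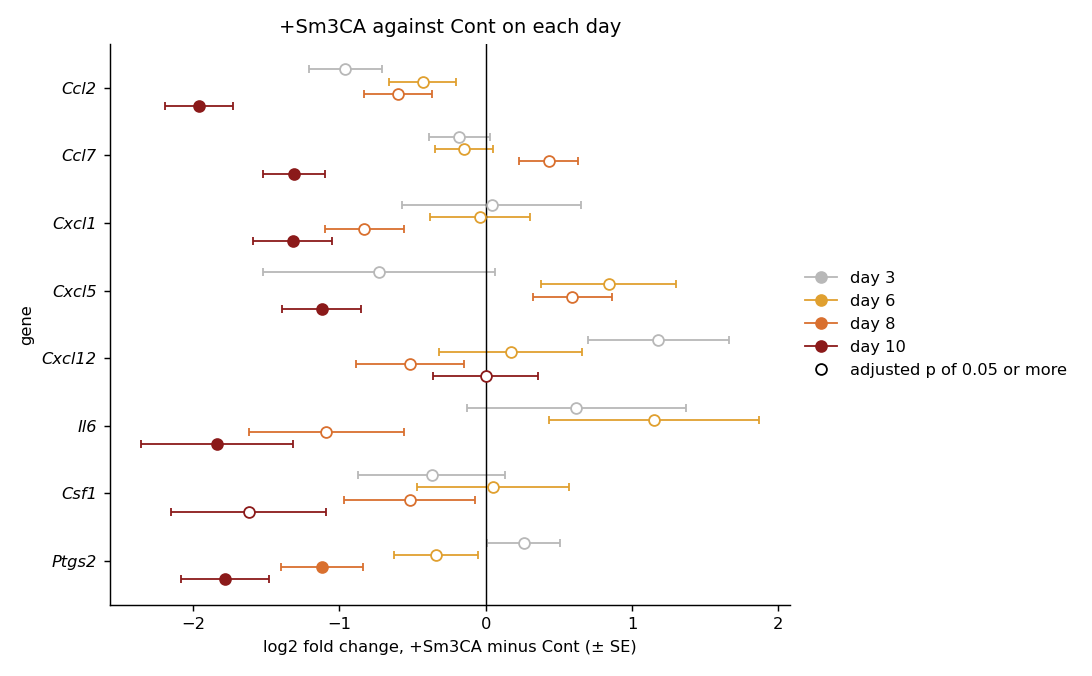
Log2 fold change between +Sm3CA and Cont (x axis, ± SE from the edgeR fit) of the 8 tested genes on days 3, 6, 8 and 10, with filled points where the adjusted p was under 0.05. The day 10 values of 6 genes are below 0 and filled, while Cxcl12 sits at 0.

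The change of the +Sm3CA minus Cont difference from day 3 to day 10 was tested by itself in the same fit. It was called for 2 of 8 genes, both toward lower values in +Sm3CA (0.899% of all genes). For Ptgs2 the difference moved by -2.05 ± 0.4 on the log2 scale (adjusted p = 0.00411), from 136, 193 and 161 against 94.5, 179 and 136 on day 3, where the groups overlapped, to the separation on day 10. This call held in all 17 alternatives tried. For Ccl7 it moved by -1.13 ± 0.29 (adjusted p = 0.0442), and leaving out 1 library ended the call in 10 of 12 cases (-1.28 to -0.92, adjusted p up to 0.182). Ccl2 moved by -1.0 ± 0.34 (adjusted p = 0.165) from its day 3 difference of -0.96, and was called without Cont day 10 replicate 1 (-1.25, 0.0266). Il6 (-2.46 ± 0.92, adjusted p = 0.223), Cxcl1 (-1.36 ± 0.68, 0.422), Cxcl12 (-1.19 ± 0.6, 0.431), Csf1 (-1.25 ± 0.73, 0.526) and Cxcl5 (-0.39 ± 0.95, 0.924) were not called. Without the low-count filter edgeR also called Ccl2 (-0.98, adjusted p = 0.0287) and Il6 (-2.44, 0.0216).

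**Figure D4:**
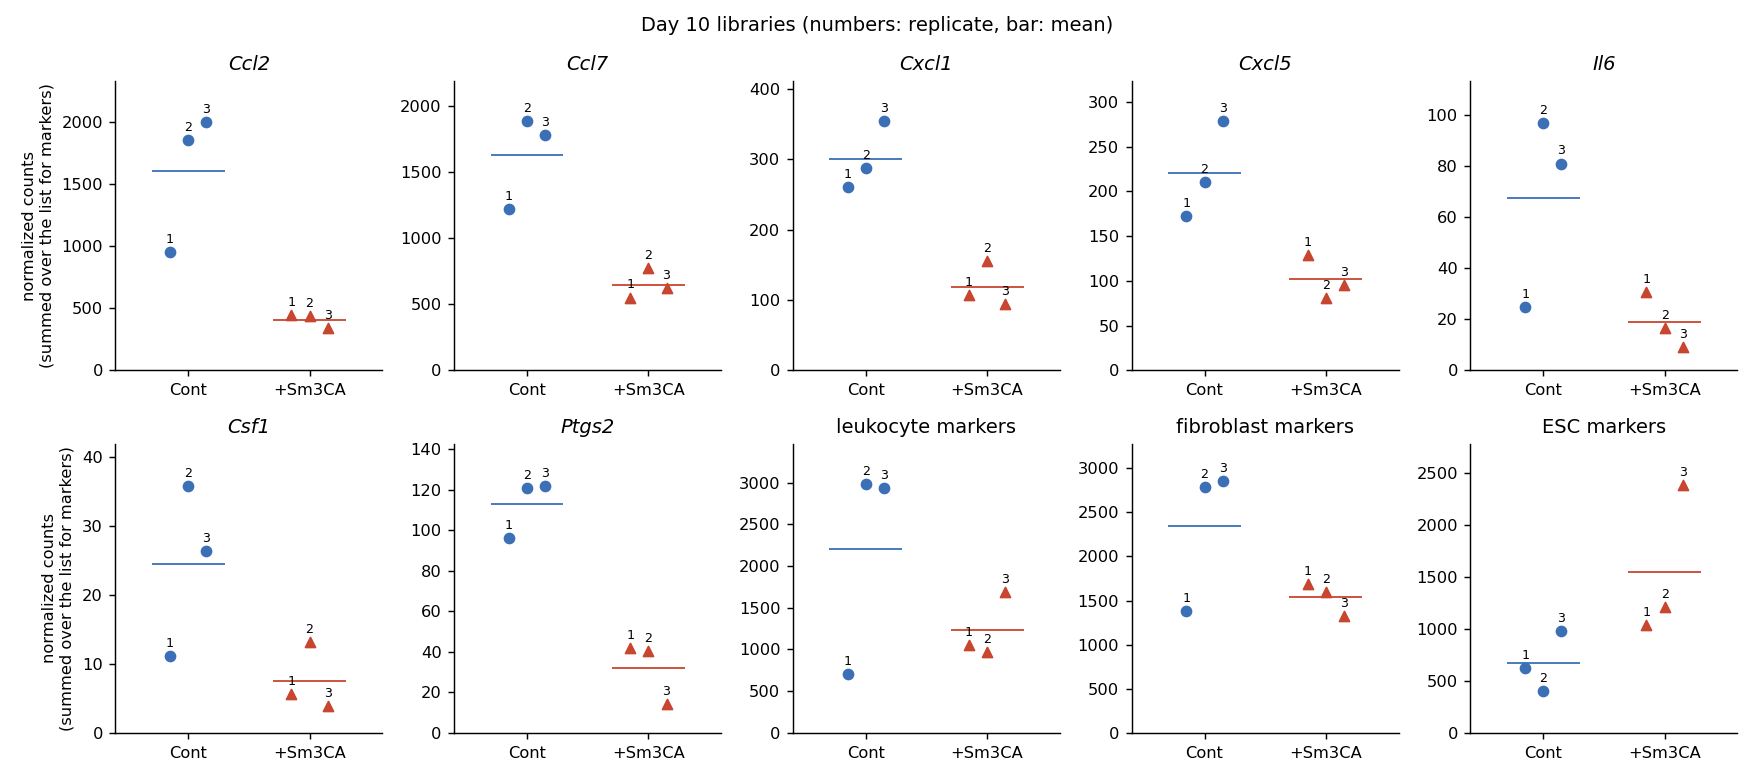
Normalized counts (y axes from 0) of 7 genes and of 3 summed marker lists in the day 10 libraries of Cont (circles) and +Sm3CA (triangles), with the replicate number at each point and a bar at the mean. Cont replicate 1 is the lowest Cont library for the 7 genes and for the leukocyte and fibroblast markers, and it lies above all +Sm3CA libraries for Ccl2, Ccl7, Cxcl1, Cxcl5 and Ptgs2.

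Cell type markers differed between the series too, and leukocyte markers did so before day 10. On day 6 their sums were 1510, 2130 and 1570 in Cont and 853, 623 and 1080 in +Sm3CA, without overlap. On day 3 they were 1050, 1180 and 416 against 348, 415 and 723, with overlap. On day 8 they were 2780, 1830 and 1710 against 1260, 1530 and 2550, also with overlap. No single leukocyte marker was called on these days. On day 10 the 16 leukocyte markers summed to 704, 2980 and 2930 in Cont and to 1050, 970 and 1690 in +Sm3CA. Of 12 tested 2 were lower in +Sm3CA (2.74% of all genes), namely Cd52 (88.7 ± 75.6 in Cont, 16.6 ± 0.939 in +Sm3CA) and Fcer1g. The 16 fibroblast markers summed to 1380, 2790 and 2850 in Cont and to 1690, 1600 and 1320 in +Sm3CA, with 6 of 14 tested lower (2.74% of all genes). The 10 ESC markers summed to 620, 400 and 983 in Cont and to 1040, 1210 and 2380 in +Sm3CA, with 4 of 9 higher (85 of 10237 genes). Of the fibroblast markers Dcn was at a mean of 741 in Cont and 686 in +Sm3CA, and Lum at 17.7 and 34.5. The part of these cell types in the day 10 differences was not tested. Cont replicate 1 had the lowest leukocyte sum of the 6 day 10 libraries. There Ccl2 was at 957, Ccl7 at 1220, Cxcl1 at 260, Cxcl5 at 173 and Ptgs2 at 96.3. Each was above the highest +Sm3CA library (447, 771, 155, 129 and 42.1), whereas Il6 at 24.7 and Csf1 at 11.1 were not. It was also the lowest Cont library for each of these genes. This is 1 library, and the relation of these levels to leukocytes was not tested. Without Cont replicate 1 the count of called genes was 7 in place of 6. Epithelial markers summed to 890 to 1080 in Cont and 1010 to 1050 in +Sm3CA, and endothelial markers stayed at or below 30.8 in every day 10 library.

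The lists of related genes were counted between +Sm3CA and Cont on day 10, where 2.74% of all genes were lower and 85 of 10237 higher. Of 19 other chemokine and cytokine genes 2 were lower and 0 higher, Cxcl10 at 24.5 ± 8.47 against 166 ± 103 (log2 fold change -2.74 ± 0.47 SE, adjusted p = 0.000334) and the CC chemokine Ccl3 at 11 ± 7.16 against 49.6 ± 41.9 (adjusted p = 0.0427). Of 7 receptors 1 was lower, Ackr3 at 32.7 ± 10.2 against 86.9 ± 17.7 (-1.37 ± 0.28, adjusted p = 0.00205), and its difference also changed from day 3 to day 10 (-1.91 ± 0.4, adjusted p = 0.0105). Of 6 prostanoid enzymes Pla2g4a, which frees arachidonic acid for COX-2, was lower at 25.7 ± 10.5 against 74.7 ± 17.7 (-1.55 ± 0.29, adjusted p = 0.000915), and its difference too changed from day 3 (-1.76 ± 0.39, adjusted p = 0.0175). The PGE2 synthase and co-chaperone Ptges3 was higher (356 ± 49.7 against 235 ± 25.8, adjusted p = 0.0422). Of 27 regulators of inflammatory signalling 3 were lower and 0 higher, the adhesion molecule Vcam1 (-1.24 ± 0.35, adjusted p = 0.0339), the NF-κB cofactor Nfkbiz (-1.1 ± 0.3, 0.0273) and Nfkbia (-0.84 ± 0.24, 0.0343). On days 3, 6 and 8 edgeR called 0 genes of these 4 lists.

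The distance still to go was measured by comparing ESCs with Cont on day 10. All 8 tested genes were lower in ESCs (30.3% of 10979 genes), with 3 replicates against 3 not overlapping for any of them. They passed the low-count filter through groups other than ESCs, so the direction was fixed in advance and the count is no result about them. Ccl2 had 4453 reads in Cont on day 10 and 2 in ESCs, a ratio of 1990 (counting interval 552 to 16500). For Ccl7 the ratio was 999 (390 to 3670) and for Cxcl1 185 (72.1 to 681). Cxcl5, with 613 reads on day 10 and none in ESCs, was at least 183-fold lower there, and Il6 at least 55.8-fold lower. The ratio to ESCs was 52.4 (14.2 to 438) for Cxcl12, 60 (10.4 to 2410) for Csf1 and 138 (37.9 to 1140) for Ptgs2. Each of these rests on 1 or 2 ESC reads, and their intervals overlap that of Cxcl1. This comparison shares its Cont libraries with that of +Sm3CA and Cont on day 10, and its ESC libraries with that of ESCs and MEFs.

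Profiles across the groups were compared over the 10 group means. Cxcl1 and Cxcl5 were the most alike in their log2 levels (Pearson r = 0.97, 10 groups), Ccl2 and Ccl7 had r = 0.95, and Csf1 and Ptgs2, low throughout reprogramming, also had r = 0.95, whereas Cxcl5 and Ptgs2 had r = 0.16. Among the 8628 genes compared the closest profile outside the 10 was Cd47 for Ccl2 (r = 0.978), Tmem43 for Ccl7 (0.991), Tapbp for Cxcl1 (0.966) and Slpi, a secreted protease inhibitor, for Cxcl5 (0.979). It was Myadm for Cxcl12 (0.991), H2-T9 for Il6 (0.98), the elastic-fibre gene Fbln5 for Csf1 (0.995) and the caveolin Cav1 for Ptgs2 (0.995). These values describe 10 points that share libraries and size factors, and the ESC group is near 0 for all 8, so they carry no test.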

How the data were processed

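The deposited table holds read counts per gene for 84 wells in mm10, made by the authors from 5′-tagged STRT libraries; Bowtie 0.12.9 and DESeq2 1.6.3 are named in the submitters' processing notes, and the annotation is not given in the sources used here. The counts were used as deposited, and the wells of a replicate were summed to 30 libraries. Whether replicates were separate cultures is stated only for the series, whose days are paired by replicate number. P-values otherwise measure the spread between these samples, which may be technical.

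The 10 genes and the lists of related genes and markers were chosen with earlier results of these data known. Genes were tested with edgeR 4.0.16 (quasi-likelihood, TMM, filterByExpr, Benjamini-Hochberg adjustment at 0.05) in R 4.3.3. Comparisons between days or series used a fit of the 24 reprogramming libraries (10237 genes), ESCs against MEFs a fit of their 6 libraries (8798 genes), and comparisons across these a fit of all 30 (10979 genes). Levels were divided by DESeq2 1.42.0 size factors. The procedure was tested on simulated data. Named genes are the 10, in each other list the 3 with the largest absolute log2 fold change among those called in a comparison, and for each of the 10 with a mean of at least 10 the gene of most similar profile over log2(normalized count + 1). Smad3, Ptprc and Dcn are named beside these. Alternatives were the DESeq2 Wald test, edgeR with DESeq2 size factors, no low-count filter, only the libraries compared, the replicate number as a block, and leaving out each library. For the block, same-numbered libraries of 1 series on different days had a mean correlation of residuals of 0.012 (36 pairs), against -0.006 for different numbers (72 pairs), so the pairing rests on the submitters' design text. A count of 0 was read with a floor of 3 reads over the group. Promoter sequences are from RefSeq.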

Additional observations from a re-analysis of the deposited data

Results flagged for a closer look

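For 2 genes the effect of Smad3CA differed between day 10 and day 3 by a test of the difference itself (edgeR interaction term, Benjamini-Hochberg adjusted over 10237 genes). For Ptgs2 the +Sm3CA minus Cont difference moved by -2.05 on the log2 scale (adjusted p = 0.00411), with 3 of 3 +Sm3CA libraries below 3 of 3 Cont libraries on day 10 and overlapping groups on day 3. For Ccl7 it moved by -1.13 (adjusted p = 0.0442), with the same separation on day 10 and overlap on day 3, and the adjusted p ran from 0.00405 to 0.182 over the alternatives. Leukocyte and fibroblast marker sums were lower on average in +Sm3CA on day 10, with overlapping libraries. Leukocyte sums were already lower in +Sm3CA on day 6 without overlap, but the series overlapped on days 3 and 8. On day 6 the leukocyte marker Lyz2 alone had means of 1540 in Cont and 739 in +Sm3CA, and no leukocyte marker was called. The part of these cell types in the changes was not tested.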

How the results depend on the processing

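Of 1434 alternative values of single genes, 1355 kept their side of the threshold, 59 of called genes lost the call, 20 of uncalled genes gained one, and 0 of called genes reversed. Among the uncalled, 33 changed sign. Without a low-count filter the genes called were 1 in place of 0 for +Sm3CA against Cont on day 3, 2 in place of 1 on day 8 and 4 in place of 2 for the change of that difference from day 3 to day 10. In a fit of only the libraries compared, 0 in place of 1 were called for +Sm3CA against Cont on day 8 and 0 in place of 1 for +Sm3CA day 10 against day 8. The cause was not tested. For ESCs against MEFs that setting is the reported fit itself, and all 30 libraries in the fit, a setting chosen after seeing the data, gave 8 in place of 7, since Cxcl5 then passed the filter.

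Leaving out each library gave these ranges of genes called. For +Sm3CA against Cont they were 0 to 0 on days 3 and 6, 0 to 1 on day 8 and 4 to 7 on day 10, and 1 to 3 for the change of the difference. In Cont they were 2 to 3 from day 3 to 6, 3 to 5 from day 6 to 8, 2 to 5 from day 8 to 10 and 6 to 7 from day 3 to 10. In +Sm3CA they were 4 to 5, 2 to 4, 0 to 1 and 5 to 6 for the same steps. ESCs against MEFs gave 7 to 7, Cont day 3 against MEFs 5 to 7 and ESCs against Cont day 10 8 to 8. A library left out leaves a group of 2 that is assumed to vary like the other groups.

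With replicate numbers entered as a block, the genes called were 5 in place of 6 for +Sm3CA against Cont on day 10 (Il6 lost), 5 in place of 4 for +Sm3CA day 6 against day 3 and 6 in place of 5 for day 10 against day 3 (Ccl7 gained in both), and the block changed no other call. Lif held at most 31 reads and Il33 at most 25 in any group, which limits what can be said of them at this depth.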
